A study of Homo sapiens with 9 samples.

Results

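ANO1 and 9 other genes of chromosome band 11q13 were followed in CAL27, an established tongue squamous carcinoma cell line. The 10 genes were chosen by their place in the 11q13 amplicon around ANO1, and ANO1 itself was selected on its measured fall in all 3 knockout groups of these libraries, so its values are given as a description with no test. They are 10 of the 78894 gene identifiers in each file, and 9 of the 10 passed the filter on low values (2 or more libraries at or above 1 TPM, where TPM is a transcript's length-scaled share of its library), as did 17100 genes in all. FGF19 did not pass.

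The series is about an enhancer active in squamous tumours of the head and neck, and sets CRISPR-edited CAL27 cells beside Control CAL27 cells. Its 9 samples fall into 4 groups, with 3 Control samples and 2 samples each of the knockouts A2ko, A8ko and C9ko. All groups were grown in DMEM with serum and none was treated. The labels do not name the edited sequence, do not say whether a knockout is 1 clone or a pool, and do not describe how the Control cells were handled during editing, so no target could be checked.

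Both files of A2ko were the same in every value, as were both files of A8ko. Counting each of these pairs once leaves 7 distinct libraries, and values for A2ko and A8ko have no replicates. The labels do not say that the Control or C9ko samples came from separate cultures, so p-values measure only the spread between these samples, which may be technical. Depth is unknown, since TPM keeps no record of it. All 8 squamous epithelial markers (KRT5, KRT14, KRT17, TP63, EPCAM, CDH1, PKP1 and DSG3) were at 1 TPM or more in every library. Their summed level was 14127 to 15279 TPM in Control and 5785 to 8648 TPM in the knockouts, so the lower ANO1 level went with a lower marker sum. KRT5 and KRT14 carried most of that sum (8917 and 3877 TPM in the Control mean), and PKP1 and DSG3 were also lower in every knockout library. CDH1 was higher in every knockout library, at 138.3 to 177.0 TPM against 100.3 to 106.3 TPM, while KRT17, TP63 and EPCAM differed in direction between knockouts. The part of that change in the results was not tested. Summed leukocyte markers were at 42.9 to 51.1 TPM in Control and 60.5 to 83.8 TPM in the knockouts, fibroblast markers at 10.8 to 12.2 and 7.36 to 17.7 TPM, and endothelial markers at 3.51 to 4.55 and 8.63 to 30.1 TPM. The leukocyte sum was nearly all CD14 and CD68, at 15.7 and 29.7 TPM in the Control mean, and they did not move together. In C9ko CD14 was higher, at 52.5 and 50.8 TPM, and CD68 lower, at 14.1 and 14.3 TPM. In A8ko CD68 was higher, at 66.3 TPM, with CD14 in its Control range, and in A2ko both were above Control. The endothelial sum was nearly all CDH5, and VWF and PECAM1 stayed under 0.31 TPM. COL3A1 and KDR were at 0 throughout and PTPRC did not pass 0.0232 TPM.

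ANO1 encodes anoctamin 1 (TMEM16A), a chloride channel of the plasma membrane that opens when cytosolic calcium rises. Band 11q13 is among the regions most often gained in squamous carcinomas of the head and neck, and the gained stretch commonly holds CCND1, ANO1, FADD, PPFIA1 and CTTN side by side. Genes gained together need not be transcribed under the same control, and the copy number of 11q13 was not measured here.

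ANO1 lies between upstream and downstream amplicon genes. Its promoter is shown with those of FADD and PPFIA1, the nearest downstream amplicon genes, whose levels differed from Control far less than that of ANO1. Whether these sequences have a part in that was not tested. The sequences are the 250 bases before the RefSeq start, on the plus strand of GRCh38.p14, at chr11:69985657-69985906 for ANO1, chr11:70203046-70203295 for FADD and chr11:70270440-70270689 for PPFIA1. Capitals mark GC boxes (GGGCGG, or CCGCCC on the other strand).

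ANO1: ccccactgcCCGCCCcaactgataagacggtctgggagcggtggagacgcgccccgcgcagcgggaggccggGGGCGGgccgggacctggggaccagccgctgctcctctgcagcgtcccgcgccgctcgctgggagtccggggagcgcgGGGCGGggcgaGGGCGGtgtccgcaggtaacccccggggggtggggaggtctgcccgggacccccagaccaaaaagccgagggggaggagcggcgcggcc

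FADD: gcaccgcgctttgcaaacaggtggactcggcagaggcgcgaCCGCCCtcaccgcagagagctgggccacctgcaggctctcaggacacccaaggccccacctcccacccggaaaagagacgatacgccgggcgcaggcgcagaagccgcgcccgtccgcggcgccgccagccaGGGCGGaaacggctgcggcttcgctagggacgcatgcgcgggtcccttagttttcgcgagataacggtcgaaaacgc

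PPFIA1: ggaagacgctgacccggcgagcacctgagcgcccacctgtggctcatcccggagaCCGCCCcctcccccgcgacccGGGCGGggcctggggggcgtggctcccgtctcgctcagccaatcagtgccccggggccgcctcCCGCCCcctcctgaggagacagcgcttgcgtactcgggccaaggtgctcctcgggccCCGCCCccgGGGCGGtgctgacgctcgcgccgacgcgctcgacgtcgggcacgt

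These windows held 4 GC boxes before ANO1, 2 before FADD and 5 before PPFIA1, and 42.6% of the 35116 promoters of this length held at least 1. CpG pairs numbered 30, 32 and 33, against a median of 11 over all promoters. No AP-1 letters (TGANTCA, searched on both strands, in 6.57% of promoters) and no TATAAA (in 10.7%) were found in any of these windows. CCAAT, present in 32.0% of promoters, occurred once, before PPFIA1. The RefSeq start of ANO1 lies 92.4 kb upstream of its start in GENCODE release 29, and the deposited values are summed per gene, so they do not show which start was used.

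ANO1 (ENSG00000131620, chromosome 11, 70078302 to 70189528, plus strand, GRCh38) was the member that set the knockouts apart from Control. Its level was 43.9, 43.4 and 42.5 TPM in the 3 Control libraries, 10.5 TPM in A2ko, 9.68 TPM in A8ko, and 5.47 and 5.90 TPM in the C9ko libraries. The 4 knockout libraries lay far below the 3 Control libraries with no overlap, and the C9ko pair was the lowest. Against the Control mean of 43.3 ± 0.726 TPM (SD, n = 3), ANO1 reached 24.2% of that level in A2ko, 22.4% of it in A8ko and 13.1% of it in C9ko. On the log2(TPM + 1) scale, on which every difference below is given, its differences from Control were -1.95, -2.05 and -2.73 units, the last with a standard error of 0.07 from limma. In bulk RNA, fewer cells expressing a gene and less RNA per cell cannot be told apart. Each Control library held against the other Control libraries gave an ANO1 difference between -0.04 and 0.03.

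Ranked by difference among the 17100 tested genes, ANO1 was 52nd from the lowest in A2ko, 73rd in A8ko and 22nd in C9ko. Genes that left the Control range and stood 1 log2 unit or more away from its mean made up 5.07% of tested genes in A2ko, 4.73% in A8ko and 5.11% in C9ko. Those at least 1 unit lower in all 3 knockouts made up 0.427%, and ANO1, chosen for that pattern, was the member among them. No other member passed that limit in any knockout.

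**Figure D1:**
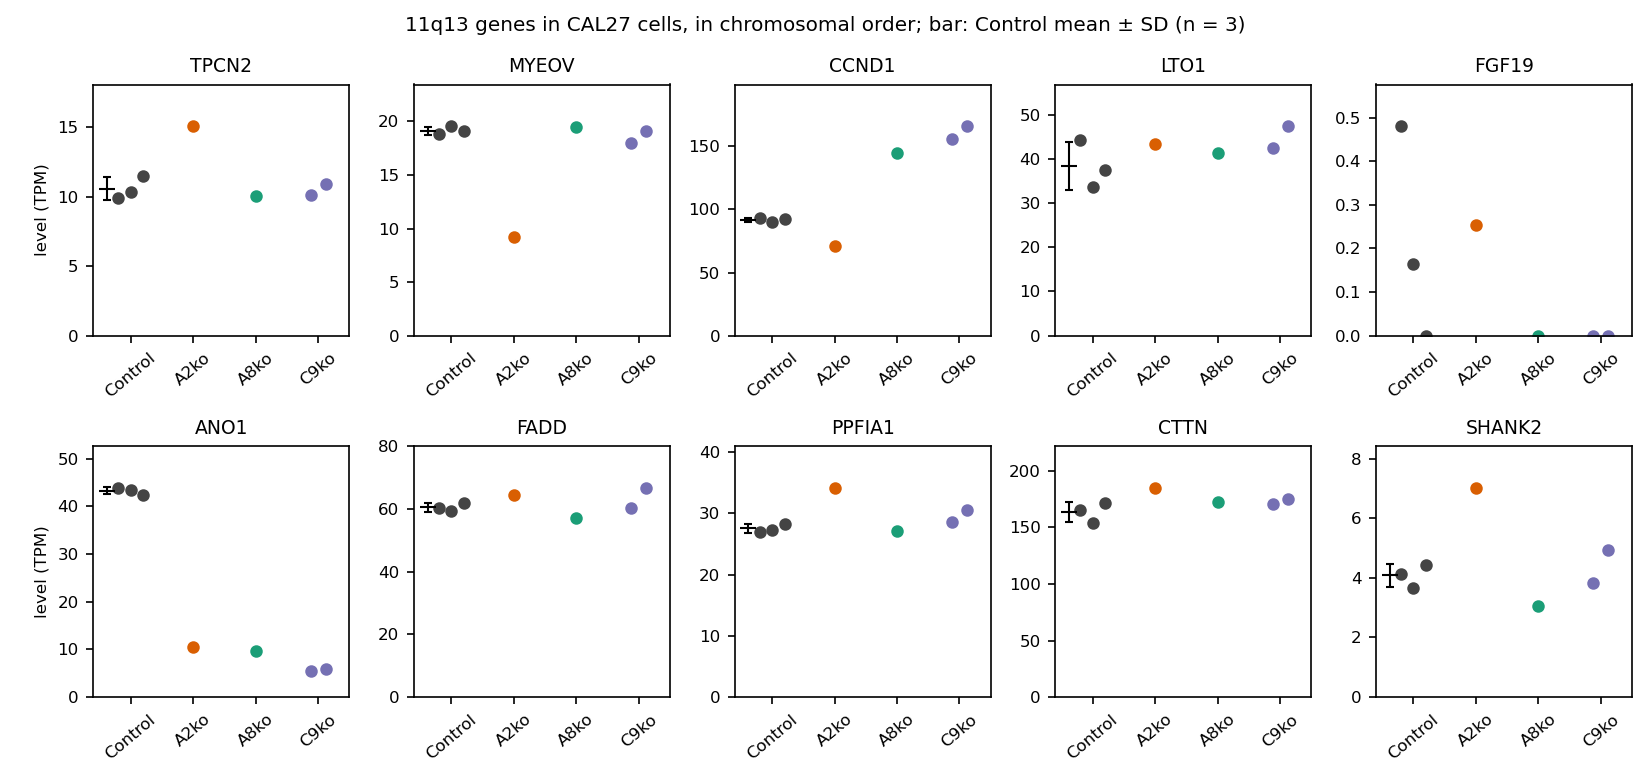
Level in TPM of the 10 members in chromosomal order, 1 point per distinct library, with the Control mean and SD (n = 3) as a bar where no Control library was at 0. ANO1 is the member whose 4 knockout libraries all lie below its Control libraries, at 5.47 to 10.5 TPM against 42.5 to 43.9 TPM.

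Downstream of ANO1, none of the 4 amplicon genes was called in C9ko, where 29.5% of all tested genes were called. Each of the 4 was measured at 3 TPM or more in every library. FADD, the adaptor that links death receptors to caspase 8, starts 13.6 kb beyond the end of ANO1 and is its nearest tested neighbour (70203163 to 70207390). It was at 60.3, 59.2 and 62.0 TPM in Control, 64.3 TPM in A2ko, 57.0 TPM in A8ko, and 60.3 and 66.7 TPM in C9ko. A2ko lay just above the Control range, A8ko just below it, and C9ko overlapped it. The C9ko difference was 0.07 (SE 0.07, 95% interval -0.10 to 0.23, limma adjusted p = 0.499). The ratio of ANO1 to FADD was below the Control range in every knockout library, which largely follows from the choice of ANO1 for its fall. Control gave 0.685 to 0.733, A2ko gave 0.163, A8ko gave 0.170, and the C9ko libraries gave 0.0908 and 0.0885.

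PPFIA1, which encodes the scaffold liprin-alpha-1 of cell adhesions, lies 81.2 kb downstream (70270700 to 70385312). It was at 27.0, 27.2 and 28.3 TPM in Control, 34.2 TPM in A2ko, 27.0 TPM in A8ko, and 28.6 and 30.5 TPM in C9ko. A2ko and both C9ko libraries were higher than every Control library, while A8ko was within their range. The C9ko difference of 0.10 did not pass the test (SE 0.07, interval -0.06 to 0.26, limma adjusted p = 0.305).

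CTTN encodes cortactin, which stabilises branched actin at the cell edge and in invadopodia, and starts 208.9 kb downstream (70398404 to 70436584). It had the highest level of the members, at 165.5, 153.7 and 171.5 TPM in Control, 184.9 TPM in A2ko, 172.4 TPM in A8ko, and 170.5 and 174.7 TPM in C9ko. A2ko stood above the Control range, A8ko passed its upper end by under 1 TPM, and C9ko overlapped it. The C9ko difference was 0.08 (SE 0.07, interval -0.08 to 0.24, limma adjusted p = 0.425).

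SHANK2 encodes a scaffold best known from the postsynaptic density and lies 278.3 kb downstream on the minus strand (70467856 to 71252577). Its level was low, at 4.14, 3.67 and 4.44 TPM in Control, 7.02 TPM in A2ko, 3.05 TPM in A8ko, and 3.82 and 4.92 TPM in C9ko. A2ko was above all Control libraries, A8ko below all of them, and C9ko on both sides. The C9ko difference was 0.07 (SE 0.13, interval -0.23 to 0.38, limma adjusted p = 0.696).

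Upstream of ANO1, CCND1 was the member called by the test. CCND1 encodes cyclin D1, which activates CDK4 and CDK6 in G1, and its body lies 423.8 kb upstream (69641087 to 69654474). It was at 93.0, 89.7 and 92.3 TPM in Control, 71.2 TPM in A2ko, 144.3 TPM in A8ko, and 155.7 and 165.8 TPM in C9ko. A8ko and C9ko stood above all Control libraries and A2ko below them. In C9ko CCND1 rose by 0.80 (SE 0.06, interval 0.66 to 0.95, limma adjusted p = 0.000181), to 175.4% of the Control mean. A2ko was at 77.7% and A8ko at 157.4%.

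The call of CCND1 held in every setting tried, with limma adjusted p from 0.000112 to 0.00503. The other 7 tested members were called in none of these settings, and the lowest adjusted p among them was 0.0585, for LTO1. In C9ko, 1 of the 8 tested members other than ANO1 was called, higher, while over all tested genes 29.5% were called (22.0% higher and 7.42% lower). Their median difference was 0.18 (A2ko), 0.00 (A8ko) and 0.08 (C9ko), beside 0.12, 0.09 and 0.11 over all tested genes. With the 3 knockout means set against Control, none of these 8 was called by limma, where 1.03% of tested genes were called, and none had an unadjusted p under 0.05, where 16.0% of tested genes did. CCND1 had a mean difference of 0.36 there (limma adjusted p = 0.565). Without A2ko, the knockout in which CCND1 was below Control, it was called, as were 11.7% of all tested genes.

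LTO1, whose product helps mature an iron-sulfur protein needed for ribosome function, is the nearest tested gene upstream of ANO1, at 402.9 kb on the minus strand (69653076 to 69675416). It was at 44.3, 33.6 and 37.6 TPM in Control, 43.3 TPM in A2ko, 41.3 TPM in A8ko, and 42.4 and 47.4 TPM in C9ko. Every knockout group overlapped the wide Control range. The C9ko difference was 0.22 (SE 0.12, interval -0.06 to 0.51, limma adjusted p = 0.206). LTO1 and CCND1 overlap by 1399 bases on opposite strands, and whether strand was used in quantification is not given in the sources used here, so the split of reads in that overlap is uncertain.

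MYEOV, named for its overexpression in myeloma, lies 710.6 kb upstream (69294138 to 69367726). It was at 18.8, 19.5 and 19.1 TPM in Control, 9.21 TPM in A2ko, 19.5 TPM in A8ko, and 18.0 and 19.1 TPM in C9ko. A2ko alone stood apart, at 48.1% of the Control mean, and the other knockouts overlapped Control. Its A2ko difference of -0.98 stopped just inside the limit of 1 unit, and it became -1.05 with a pseudocount of 0.1 TPM and -1.10 after median of ratios scaling. The C9ko difference was -0.04 (SE 0.07, interval -0.21 to 0.12, limma adjusted p = 0.661).

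TPCN2, a two-pore cation channel of lysosomes, lies 915.9 kb upstream (69048897 to 69162440). It was at 9.91, 10.3 and 11.5 TPM in Control, 15.1 TPM in A2ko, 10.1 TPM in A8ko, and 10.1 and 10.9 TPM in C9ko. A2ko was above the Control range and the other knockouts were within it. The C9ko difference was -0.01 (SE 0.09, interval -0.22 to 0.21, limma adjusted p = 0.963).

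FGF19, the endocrine fibroblast growth factor that acts through FGFR4 and beta-klotho, lies 373.7 kb upstream (69698232 to 69704642). It was near or at 0 throughout, listed at 0.480, 0.164 and 0 TPM in Control, 0.253 TPM in A2ko, and 0 TPM in A8ko and in both C9ko libraries. These values are too low for a comparison. Its amplicon neighbours FGF3 and FGF4 were listed at 0 in every library.

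In Control the members ran in level from CTTN through CCND1, FADD, ANO1, LTO1, PPFIA1, MYEOV, TPCN2 and SHANK2 down to FGF19. Of the neighbours in that order, ANO1 and LTO1 overlapped in their Control ranges. TPM is scaled for transcript length, so levels can be set side by side across genes. Summed over FADD, PPFIA1 and CTTN, the level was 240.1 to 261.8 TPM in Control, 283.4 TPM in A2ko, 256.4 TPM in A8ko, and 259.3 and 271.9 TPM in C9ko. The A2ko sum and that of the second C9ko library were above the Control range, and the others were within it.

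Within the ANO1 gene body, the antisense transcript ANO1-AS1 was listed at 0 in every library, and the sense-overlapping ENSG00000255143 did not pass 0.199 TPM. The lincRNA ENSG00000255191, annotated at the RefSeq start of ANO1, was also listed at 0 throughout.

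To place the members beside other genes chosen by position alone, all tested genes within 2.5 Mb of the ANO1 body were counted, ANO1 left out. There were 52, of which 13 were called in C9ko (25.0%), where 29.5% of all tested genes were called. Of these, 6 were higher (11.5% of the 52, against 22.0% of all tested genes) and 7 lower (13.5%, against 7.42%). Whether these shares differ was not tested. None of the 52 passed 1 log2 unit in any knockout, where 5.07% (A2ko), 4.73% (A8ko) and 5.11% (C9ko) of all tested genes did. Of the 197 tested genes within 5 Mb, 10 passed it higher in A2ko, 4 in A8ko and 7 in C9ko. Lower, 0 passed it in A2ko, 1 in A8ko and 1 in C9ko. The lowest neighbour differences were -0.98 in A2ko (MYEOV), -0.93 in A8ko (ALDH3B2) and -0.64 in C9ko (ALDH3B1). In each knockout ANO1 was lower than every tested neighbour, which largely follows from its choice for that fall. The median neighbour difference was 0.10 in A2ko, 0.00 in A8ko, and 0.07 in the C9ko fit.

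The called neighbours lay mostly upstream. On that side 11 of 29 were called (4 higher, 7 lower), a share of 37.9%. Downstream, 2 of 23 were called, both higher, a share of 8.7%. Over all tested genes, 29.5% were called (22.0% higher and 7.42% lower). Whether the sides differ was not tested. Within 1 Mb of ANO1, CCND1 was the called gene among 11 tested (9.09%). With the 3 knockout means against Control, none of the 52 was called by limma, while 9 had an unadjusted p under 0.05 (5 higher, 4 lower), a share of 17.3% beside 16.0% of all tested genes. Without A2ko, 6 were called there (11.5%, beside 11.7% of all tested genes): ALDH3B1, ALDH3B2 and GAL lower, and CCND1, C11orf24 and DHCR7 higher.

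**Figure D2:**
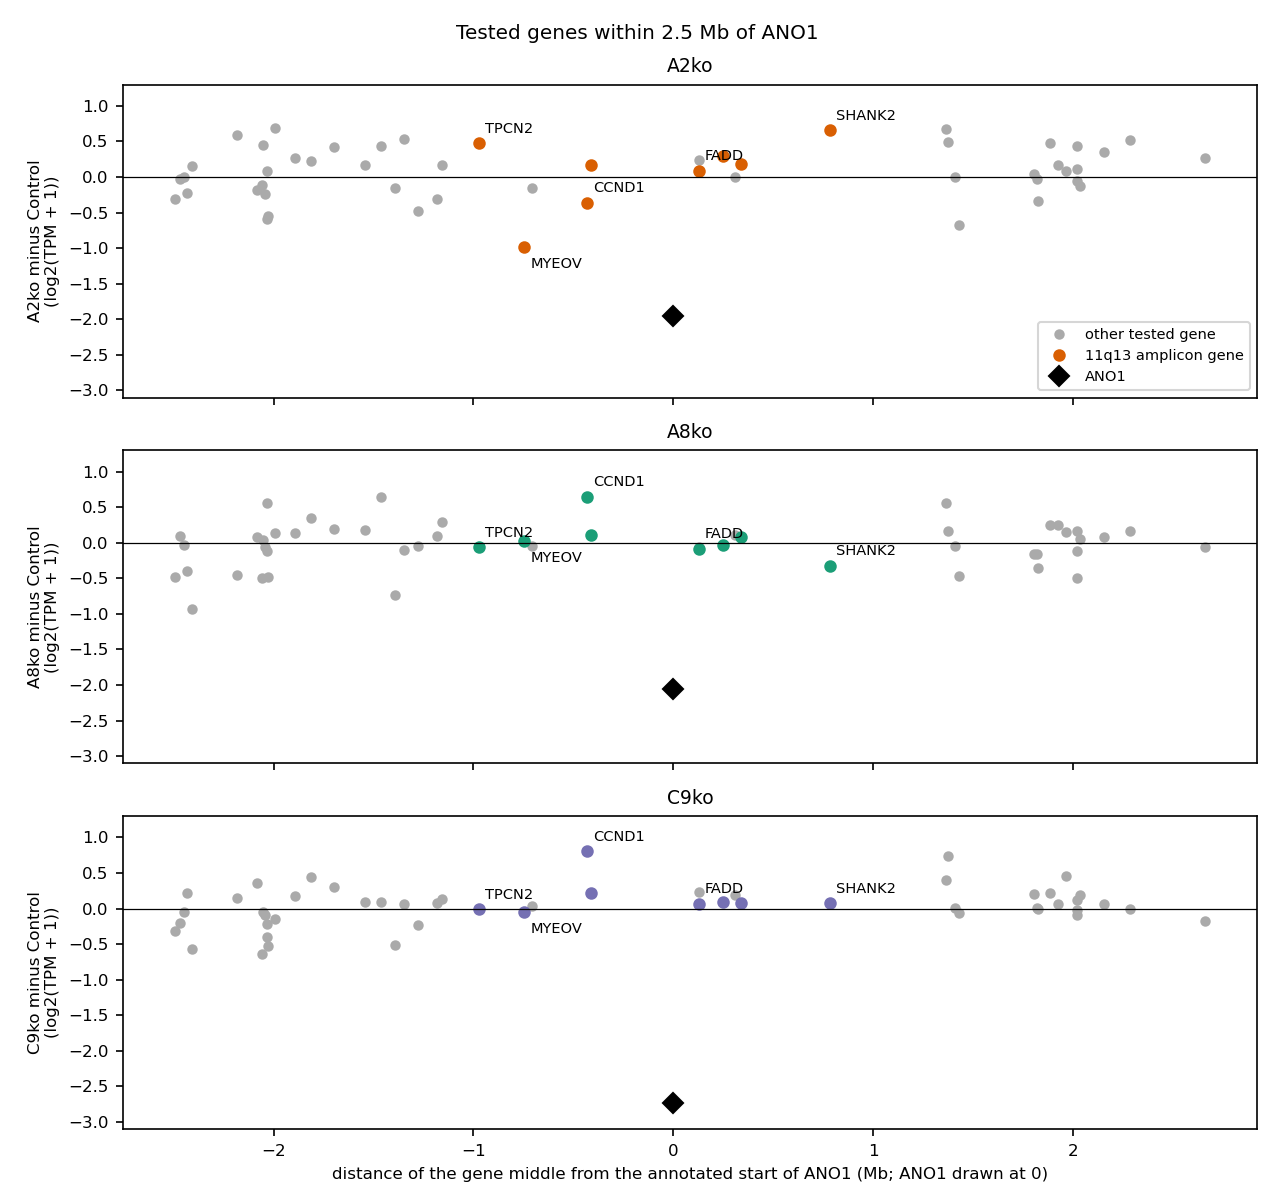
Difference from the Control mean on the log2(TPM + 1) scale for the tested genes within 2.5 Mb of ANO1, by the distance in Mb of each gene's middle from the start of ANO1, 1 panel per knockout. ANO1 (diamond) lies at -1.95, -2.05 and -2.73, and no neighbour reaches -1 in any panel.

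The neighbours that fell most in C9ko were more than 1 Mb upstream. ALDH3B1, an aldehyde dehydrogenase, fell by 0.64 (SE 0.09, limma adjusted p = 0.00213). It was at 14.7 to 16.7 TPM in Control and 9.19 and 10.1 TPM in C9ko, with 14.2 TPM in A2ko and 10.8 TPM in A8ko. ALDH3B2, of the same family, fell by 0.57 (SE 0.07, limma adjusted p = 0.00116). It was at 29.2 to 31.6 TPM in Control and 20.0 and 19.8 TPM in C9ko, with 33.7 TPM in A2ko and 15.4 TPM in A8ko. GAL, which encodes the neuropeptide galanin, fell by 0.51 (SE 0.06, limma adjusted p = 0.00149). It was at 36.2 to 37.1 TPM in Control and 24.8 and 26.3 TPM in C9ko, with 32.8 TPM in A2ko and 21.7 TPM in A8ko. In A2ko, ALDH3B2 was above its Control range, and ALDH3B1 and GAL were below theirs. Each Control library held against the others differed by -0.11 to 0.14 for ALDH3B1, -0.07 to 0.10 for ALDH3B2 and -0.03 to 0.02 for GAL. The largest such difference of any of the 52 neighbours was 0.63 to 0.82 in size, in DEFB131B, ENSG00000254924 and MIR6753. ENSG00000255031, which overlaps CHKA on the opposite strand and TCIRG1 on the same strand, fell by 0.53 (limma adjusted p = 0.0455). TCIRG1 also fell in C9ko, by 0.39 (limma adjusted p = 0.00520). In the Control mean TCIRG1 was at 127.7 TPM and ENSG00000255031 at 13.4 TPM, so their reads may be mixed. Downstream, ENSG00000254682 rose by 0.74 (limma adjusted p = 0.00197); it overlaps DHCR7, a sterol reductase of cholesterol synthesis that rose by 0.40 (adjusted p = 0.00330), so reads of the pair may be mixed.

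Among other calcium-activated chloride channels, ANO6 and ANO10 rose and CLCA2 fell in C9ko. Of 16 such genes besides ANO1 (anoctamins, CLCA and bestrophin genes), 7 were tested and these 3 were called, where 29.5% of all tested genes were. ANO6, a lipid scramblase of the same family, was at 29.4 ± 1.29 TPM in Control (SD, n = 3), 31.5 TPM in A2ko, 33.8 TPM in A8ko, and 40.2 and 41.5 TPM in C9ko. All 4 knockout libraries were above Control, and in C9ko it rose by 0.46 (SE 0.07, limma adjusted p = 0.00292). ANO10 rose by 0.85 in C9ko (SE 0.14, limma adjusted p = 0.00456), to 15.3 and 16.2 TPM from 8.34 ± 1.46 TPM (SD, n = 3); it overlaps SNRK and ABHD5 on the other strand. ANO9 was at 32.1 ± 1.51 TPM in Control, 45.9 TPM in A2ko, 20.2 TPM in A8ko, and 27.9 and 29.6 TPM in C9ko, so the knockouts stood on both sides of it. CLCA2, an epithelial gene first taken for a chloride channel, fell by 0.67 in C9ko (SE 0.10, limma adjusted p = 0.00291), to 3.31 and 3.30 TPM from 5.83 ± 0.159 TPM (SD, n = 3), and was at 0.892 TPM in A2ko and 2.63 TPM in A8ko.

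Most tested genes listed around CCND1 rose in C9ko, CDK inhibitor genes among them. Of the 19 tested genes of cyclin D and G1 control besides CCND1, 11 rose (57.9%, where 22.0% of all tested genes rose) and 1 fell in C9ko. Those that rose were CCND2, CCND3, CCNE1, CDK2, E2F1 and E2F3, the inhibitor genes CDKN1A, CDKN2A and CDKN2D, and RBL1 and RBL2. The smallest of these rises was 0.26, in CDKN1A (limma adjusted p = 0.0430). No count of this list is given after median of ratios scaling. CDK6 fell, by 0.23, and CDK4 was not called (0.04), so the list had no single direction of effect on G1. The median difference was 0.31 beside 0.11 over all genes, and 0.02 in A2ko and 0.15 in A8ko. CCND2, which encodes cyclin D2, was at 1.15, 0.851 and 0.891 TPM in Control, 0.111 TPM in A2ko, 15.2 TPM in A8ko, and 19.8 and 22.1 TPM in C9ko. It rose by 3.48 in C9ko (SE 0.12, limma adjusted p = 1.2e-05), was also higher in A8ko, and was lower than every Control library in A2ko. CCND3 was at 50.5 ± 2.92 TPM in Control (SD, n = 3), 48.2 TPM in A2ko, 76.3 TPM in A8ko, and 71.8 and 81.7 TPM in C9ko, a rise of 0.59 in C9ko (SE 0.08, limma adjusted p = 0.00243). For all 3 D-type cyclins, A8ko and C9ko were above every Control library, and A2ko was not.

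**Figure D3:**
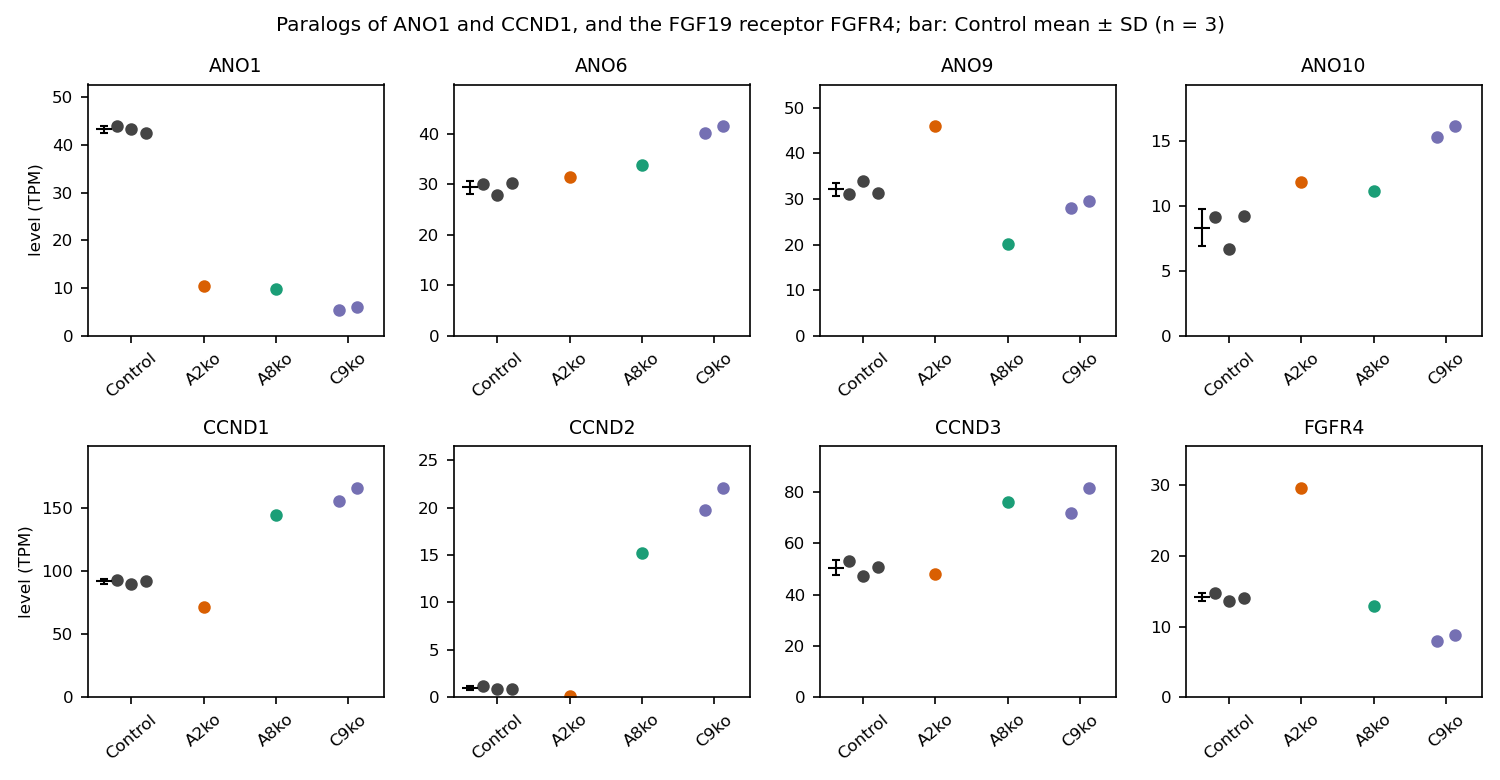
Level in TPM of ANO1, ANO6, ANO9 and ANO10 (top) and of CCND1, CCND2, CCND3 and FGFR4 (bottom), 1 point per distinct library, with the Control mean and SD (n = 3) as a bar. ANO6 and ANO10 are above Control in all 4 knockout libraries, and the D-type cyclins are above Control in A8ko and C9ko.

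Death receptor genes around FADD included 13 tested genes, of which 7 rose and none fell in C9ko, where 22.0% of all tested genes rose and 7.42% fell. Their median difference was 0.39, beside 0.11 over all tested genes. The receptor gene TNFRSF10B rose by 0.79 (SE 0.07, limma adjusted p = 0.000345), and BID, which carries the caspase 8 signal to mitochondria, by 0.64 (SE 0.06, adjusted p = 0.000564). In A2ko and A8ko the list medians were 0.15 and 0.11, and some genes differed in direction between these knockouts. TNFRSF10B was at 30.6 TPM in A2ko and 59.7 TPM in A8ko, against 35.4 TPM in the Control mean. The ligand gene TNFSF10 was at 434.4 TPM in A2ko and 98.5 TPM in A8ko, against 320.8 TPM in the Control mean, and was not called in C9ko. FADD itself was not called.

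Of the 18 genes of cortactin, ARP2/3 and invadopodia besides CTTN, 4 rose and 2 fell in C9ko, a called share of 33.3% beside 29.5% of all tested genes. The median difference was 0.07, beside 0.11. ARPC4, an ARP2/3 subunit, was at 97.6, 100.9 and 99.2 TPM in Control, 91.5 TPM in A2ko, 121.7 TPM in A8ko, and 214.9 and 207.4 TPM in C9ko. It rose by 1.08 in C9ko (SE 0.06, limma adjusted p = 4.6e-05), and it overlaps TADA3 and ARPC4-TTLL3. The membrane protease gene MMP14 rose by 0.81 (SE 0.06, limma adjusted p = 0.000206).

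Among liprins, SHANK scaffolds and their LAR phosphatase partners, 6 were tested besides PPFIA1 and SHANK2, and 2 rose and 2 fell in C9ko, where 29.5% of all tested genes were called. The median difference was 0.05, beside 0.11. PTPRS, a receptor phosphatase of the LAR family, was at 4.09, 4.30 and 4.43 TPM in Control, 11.9 TPM in A2ko, 0.368 TPM in A8ko, and 1.45 and 1.77 TPM in C9ko. It fell by 1.02 in C9ko (SE 0.11, limma adjusted p = 0.000884), and it stood below Control in A8ko but above it in A2ko.

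Of the 10 genes listed with FGF19 (other FGFs, FGF receptors and klothos), 3 were tested. Of these 3, 2 fell in C9ko, where 7.42% of all tested genes fell. KLB, which encodes beta-klotho, stayed between 0.117 and 0.234 TPM and was not tested. FGFR4, the main receptor of FGF19, was at 14.2 ± 0.582 TPM in Control (SD, n = 3), 29.6 TPM in A2ko, 12.97 TPM in A8ko, and 7.96 and 8.79 TPM in C9ko, a fall of 0.69 in C9ko (SE 0.08, limma adjusted p = 0.00102). FGFR3 fell by 0.75 (SE 0.07, limma adjusted p = 0.000403), to 50.2 and 48.9 TPM from 84.2 ± 4.73 TPM (SD, n = 3), and was at 36.8 TPM in A2ko and 54.2 TPM in A8ko. Of the 4 other endolysosomal channels, 2 rose in C9ko, where 22.0% of all tested genes rose, among them TPCN1, the paralog of TPCN2 (0.84, SE 0.07, limma adjusted p = 0.000265). In the comparison of all knockouts with Control, none of the 70 tested genes of these lists besides the members was called by limma, and 14 had an unadjusted p under 0.05 (20.0%, beside 16.0% of all tested genes).

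The genes whose level followed ANO1 most closely over the 7 libraries were not amplicon genes. Of 10747 genes with a Control mean of at least 5 TPM, 3 had a Pearson's r above 0.99 with ANO1 and 44 above 0.95. These r values are descriptions over 7 libraries that fall into a Control cluster and a knockout cluster. EMP1, an epithelial membrane protein, had r = 0.997 and was at 47.7 to 50.02 TPM in Control, 26.6 TPM in A2ko, 28.2 TPM in A8ko, and 22.0 and 22.3 TPM in C9ko. ACKR3, a scavenging chemokine receptor, had r = 0.991 and was at 80.5 to 90.6 TPM in Control, 31.2 TPM in A2ko, 29.1 TPM in A8ko, and 25.8 and 24.8 TPM in C9ko. Both were lower than Control in every knockout library, which largely follows from their choice by r with ANO1.

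Of the 5 genes with the highest r, ACKR3 had the smallest root mean square difference from ANO1, 0.60 log2 units between the Control-centred profiles, against 1.08 for EMP1. TM4SF19 (r = 0.991) differed by 0.73 units and had differences from Control of -1.15, -1.31 and -1.62 units in A2ko, A8ko and C9ko. CYP2S1 (r = 0.987) differed by 1.13 units. RPL12 (r = 0.989) differed from Control far less, with differences of -0.19, -0.22 and -0.27 units. Among the members, r with ANO1 was 0.24 for MYEOV, -0.67 for CCND1, -0.29 for FADD, -0.46 for PPFIA1 and -0.60 for CTTN. It was -0.15 for TPCN2 and -0.62 for LTO1. SHANK2 (-0.15) and FGF19 (0.51, near or at 0 TPM throughout) were under the 5 TPM limit and not among the genes compared.

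**Figure D4:**
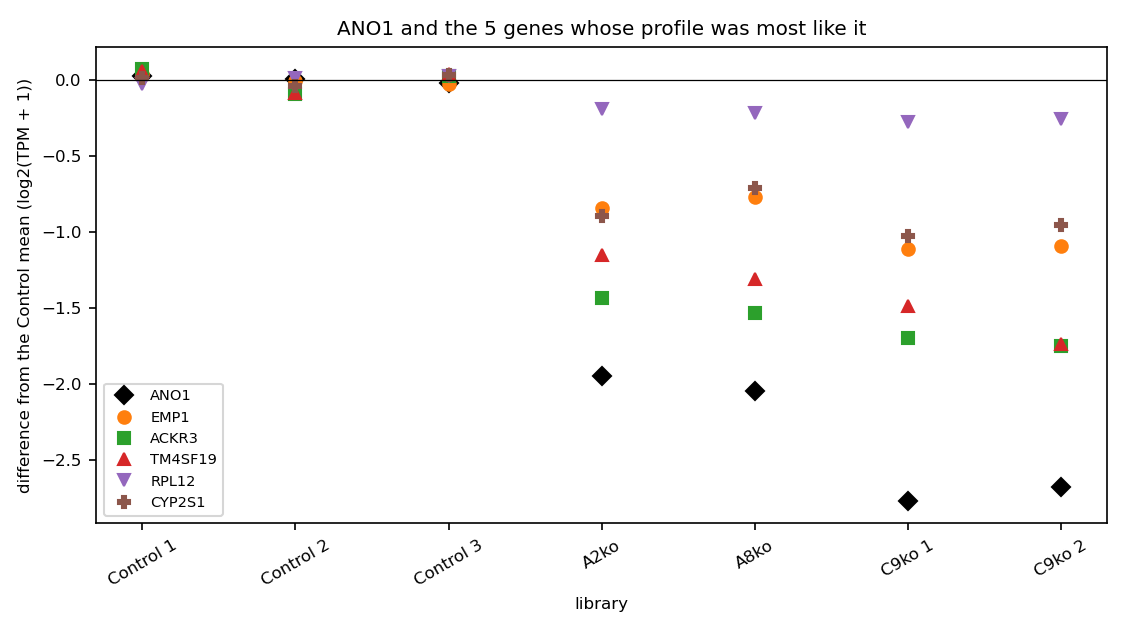
Difference from the Control mean on the log2(TPM + 1) scale of ANO1 and the 5 genes with the highest Pearson's r with it, in each of the 7 distinct libraries. The Control libraries lie near 0, and the knockout libraries of ANO1 lie lowest, with RPL12 between -0.19 and -0.27 in the group means.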

How the data were processed

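RNA was measured in 9 samples of CAL27 cells by polyA RNA sequencing, with TRIzol extraction and dUTP libraries, per the labels' protocols. The deposited values are TPM per gene, computed by the authors on hg38, per the submitters' processing notes; the aligner, quantification tool and annotation are not given in the sources used here. The values of the A2ko library summed to 1000129.78, and those of each other library to 1000000. Of 78894 identifiers, 61463 had a symbol and 57342 were found in GENCODE release 29, which gave positions on GRCh38. Promoter sequences came from RefSeq (GRCh38.p14), where 5 of the 10 members matched.

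From the deposited TPM, log2 values with a pseudocount of 1 TPM were computed here, a scale that understates changes of low genes. Genes with at least 1 TPM in at least 2 of the 7 distinct libraries were tested. The C9ko contrast came from limma 3.58.1 (R 4.3.3), run on the 4 groups together with a trended eBayes step and p-values adjusted by Benjamini-Hochberg across the 17100 genes. Genes were called at an adjusted p under 0.05. For all knockouts, the 3 group means were fitted against the 3 Control libraries. A2ko and A8ko have no test. The fits were tested on simulated data. TPM is a share, and the median of all tested genes was 0.09 to 0.12 log2 units above Control in the knockouts.

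The members and gene lists were chosen with earlier results of these data known. Named genes were the members, called neighbours that differed by at least 0.5 log2 units, the nearest tested gene on each side, the 5 genes most like ANO1, and list genes called with a difference of at least 1 unit. DHCR7, ANO6, ANO9, ANO10, CLCA2, BEST1, CCND3, TNFRSF10B, BID, MMP14, FGFR3, FGFR4, TPCN1, C11orf24 and P2RY2 were chosen after their values were seen. The same holds for TCIRG1, TMEM262, ZFPL1, TNFSF10, KLB and the G1 control genes named besides the D-type cyclins. Alternatives were another pseudocount, no filter, a stricter filter, median of ratios scaling, a replicate block, other windows and leaving out each library.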

Additional observations from a re-analysis of the deposited data

Results flagged for a closer look

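In 3 members the knockout groups stood on opposite sides of all Control libraries. The difference between knockouts was not tested for any of them. The share of all tested genes with this pattern is not given here, and A2ko and A8ko have no replicates. The count of members therefore has no background to be read against. CCND1 was below every Control library in A2ko and above every Control library in A8ko and C9ko, and its highest and lowest knockout differences were 1.16 log2 units apart. SHANK2 was above Control in A2ko and below it in A8ko, 0.98 units apart. FADD was above Control in A2ko and below it in A8ko by far less, 0.17 units apart, and its A2ko difference changed from 0.09 to -0.04 after median of ratios scaling.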

How the results depend on the processing

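ANO1 stayed lower in all 3 knockouts under every alternative run, with differences from -2.07 to -1.94 log2 units in A2ko, -2.15 to -2.04 in A8ko and -2.91 to -2.68 in C9ko, and no called difference changed sign. The 5038 genes called in C9ko became 3246 with a replicate block and ranged from 3301 (without C9ko replicate 2) to 5035 when a library was left out. The 176 genes called with all knockouts became 23 with no filter on low values and ranged from 5 to 1993 when a library was left out: 11, 5 and 5 without Control 1, 2 and 3, and 1993 without A2ko. The 867 genes past 1 unit in A2ko became 1813 with a pseudocount of 0.1 TPM and 380 with a mean of at least 5 TPM, and the 809 in A8ko became 1689 and 412. The 13 called neighbours became 7 with the replicate block, 1 within 1 Mb and 52 within 5 Mb, and ranged from 10 to 13 when a library was left out.

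Median of ratios scaling changed the share of higher genes among the C9ko calls from 74.8% to 54.6%, and the called neighbours from 6 higher and 7 lower to 5 higher and 10 lower. It also turned below 0 the uncalled C9ko differences of FADD (-0.06), PPFIA1 (-0.03), CTTN (-0.05) and SHANK2 (-0.03), and the untested ones of FADD in A2ko (-0.04), CTTN in A8ko (-0.02) and MYEOV in A8ko (-0.07). When a library was left out or the replicate block added, the uncalled C9ko differences of TPCN2, FADD and SHANK2 also changed sign. Control and C9ko shared only 2 replicate numbers, same-numbered libraries deviated with r of -0.05 and -0.01, and no label ties the numbers to a batch, so the block is given here alone. The group means of all knockouts carry no replicate number, so they have no block. The depth of the libraries is unknown, which limits what low genes such as FGF19 can show.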

Other observations

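P2RY2, a receptor for extracellular nucleotides that raises cytosolic calcium, lies 3028.8 kb downstream of ANO1 (chromosome 11, 73218298 to 73236352). It was at 27.2, 27.0 and 26.1 TPM in Control, 15.0 TPM in A2ko, 12.7 TPM in A8ko, and 12.5 and 13.2 TPM in C9ko. All 4 knockout libraries were below all Control libraries. It fell by 1.001 in C9ko (SE 0.07, limma adjusted p = 0.000125) and by 0.94 with all knockouts against Control (adjusted p = 0.0173), and it was the gene called in that comparison among the 197 tested genes within 5 Mb of ANO1. It was chosen after its values were seen.

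BEST1, a bestrophin chloride channel gene elsewhere on chromosome 11, was at 9.34 TPM in C9ko replicate 1 and 567.9 TPM in C9ko replicate 2, where Control had 519.4 to 621.1 TPM, A2ko 835.6 TPM and A8ko 1038 TPM. The C9ko libraries therefore disagreed on BEST1, and it was not called (limma adjusted p = 0.173). They also disagreed on other genes, among them the overlapping TMEM262 and ZFPL1. In C9ko replicates 1 and 2, TMEM262 was at 1.70 and 29.2 TPM, and ZFPL1 at 116.7 and 47.5 TPM. Genes that overlap BEST1 are not listed here, so whether its reads come from BEST1 alone is unknown.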
